A study of Mus musculus with 6 samples.

Results

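Ptchd1, which encodes a membrane protein with a patched domain, was followed together with 8 hedgehog pathway genes, Ptch1, Smo, Gli1, Gli2, Gli3, Sufu, Hhip and Disp1, in brain endothelial cells of mouse embryos. The members were found by their gene symbols, and each of the 9 symbols matched 1 of the 22958 gene entries. Ptchd1 was selected on its measured difference between the groups compared here, so its values are given as a description without a test. The cells had been sorted as CD31+, PECAM1+ at E11.5, the middle of gestation, after tamoxifen had been given to the mother at E9.5, on a C57BL/6 x 129/Sv background. The 3 control libraries had the genotype Cdhrs5CreERT2:R26Axin1IL-/- and the 3 Axin1 libraries Cdhrs5CreERT2:R26Axin1IL+/-, so both groups carried the tamoxifen-inducible Cre, whose driver is spelled Cdhrs5 in the labels. The design asks how gene expression differs in brain endothelial cells that overexpress Axin1, a scaffold of the complex that degrades beta-catenin. The libraries are described as biological replicates, but litters, pools and sex were not stated, so every p-value measures only the spread between these 6 libraries.

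In the hedgehog pathway a secreted ligand (Shh, Ihh or Dhh) binds the receptor Ptch1, which otherwise holds the transducer Smo inactive, and Smo then acts at the primary cilium to free the GLI transcription factors from Sufu. Gli1, Ptch1 and Hhip are themselves induced by the pathway in many tissues, and in the embryonic head the ligand Shh comes from the floor plate, notochord and other sources outside the vessels. Ptchd1 resembles the patched receptors in its domain layout. It is known as an X-linked gene whose loss is associated with intellectual disability and autism in humans, and its place in hedgehog signalling is not settled.

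The sequence just upstream of the annotated start is shown for Ptchd1 and for Ptch1, the receptor it resembles, to set the selected gene beside its best-known relative; CpG dinucleotides are in capitals, and both sequences are from RefSeq (GRCm38.p6), on the minus strand, 5′ to 3′. Ptchd1 is at chrX:155623328-155623577 and Ptch1 at chr13:63565736-63565985.
Ptchd1: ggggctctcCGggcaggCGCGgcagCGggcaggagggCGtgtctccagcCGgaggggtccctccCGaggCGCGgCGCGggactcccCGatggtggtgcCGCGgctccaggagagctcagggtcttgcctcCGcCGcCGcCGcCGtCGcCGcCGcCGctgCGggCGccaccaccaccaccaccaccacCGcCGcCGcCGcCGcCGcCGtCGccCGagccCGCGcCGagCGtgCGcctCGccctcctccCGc
Ptch1: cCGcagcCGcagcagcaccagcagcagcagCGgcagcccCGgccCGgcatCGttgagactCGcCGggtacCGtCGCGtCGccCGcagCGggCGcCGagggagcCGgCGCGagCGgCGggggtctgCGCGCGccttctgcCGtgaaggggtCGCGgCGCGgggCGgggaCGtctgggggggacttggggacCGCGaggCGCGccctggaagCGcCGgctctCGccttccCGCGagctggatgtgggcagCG
Each 250-base window held 41 CpG dinucleotides, more than 98.9% of the 32851 promoter windows of the same length in the table. The GC content was 81.6% for Ptchd1 and 78.4% for Ptch1, against a median of 52.4% over all windows. A window was found for 8 of the 9 members, and the other tested members had fewer CpG dinucleotides, from 8 for Sufu to 34 for Gli3. On either strand, no window of Ptchd1, Ptch1, Smo, Gli2, Gli3, Sufu or Hhip held the GLI motif GACCACCCA, its core CCACCCA (which lies inside the longer motif) or the TCF/LEF motif CTTTGA, whereas each of the 2 windows of Disp1 held 1 TCF/LEF match. Among all windows, 0.225% held the GLI motif, 8.11% its core and 13.8% the TCF/LEF motif. These are matches of letters in a short window and describe no binding.

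The libraries held 10772492 to 14234409 counted reads. Levels are given as CPM, which puts the reads of a gene on a common library size. Library sizes were scaled by TMM, a trimmed mean of log ratios between libraries that takes most genes as unchanged. Axin1 itself was at 25.03, 17.6 and 20.8 CPM in the control libraries and at 79.8, 62.2 and 66.2 CPM in the Axin1 libraries, which matched the labels. The endothelial markers Pecam1 and Cdh5 were at 1182 CPM or more and 432 CPM or more in every library, and 0 of 16 pan-endothelial markers passed the test between the groups. For 3 of the 16 the groups did not overlap, Cdh5 and Robo4 being higher and Esam lower with Axin1. Cdh5 was at 432, 502 and 846 CPM in the controls and 981, 945 and 924 CPM with Axin1 (log2 fold change 0.68, adjusted p from edgeR 0.218). Across all 12661 genes tested by edgeR's quasi-likelihood method, 107 (0.845%) had a Benjamini-Hochberg adjusted p under 0.05, of which 45 (0.355%) were higher and 62 (0.49%) lower in the Axin1 libraries. The groups did not overlap for 3008 genes (23.8%). In bulk RNA of sorted cells, a change in the number of cells of a kind and a change in RNA per cell cannot be told apart.

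Ptchd1 (NM_001093750) was about 3.83 times as abundant in the Axin1 libraries. Its counts were 98, 120 and 96 reads in the control libraries and 437, 578 and 315 reads in the Axin1 libraries. These correspond to 8.58, 9.20 and 8.82 CPM against 34.9, 39.8 and 27.2 CPM. The control libraries lay within 1 CPM of each other, and the lowest Axin1 library, replicate 3, was still well above all of them. The mean was 8.87 ± 0.316 CPM in the controls and 34.0 ± 6.34 CPM with Axin1 (SD, n = 3 each), a log2 fold change of 1.94 (SE 0.19, 95% interval 1.5 to 2.37). This interval does not allow for the selection of Ptchd1 on the same difference, so it is a description and no test. On the log2 scale the difference lay between 1.39 and 2.07 over 16 other ways of processing the data, and it was lowest where 1 was added to each RPKM value before taking logs. All 16 reuse the libraries on which Ptchd1 was selected. The same gene was the only member to pass the threshold of the test across all genes, which describes its selection and supports nothing beyond it. It did not pass without control replicate 1, control replicate 2 or Axin1 replicate 2, when 0 of the 9 members passed.

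**Figure D1:**
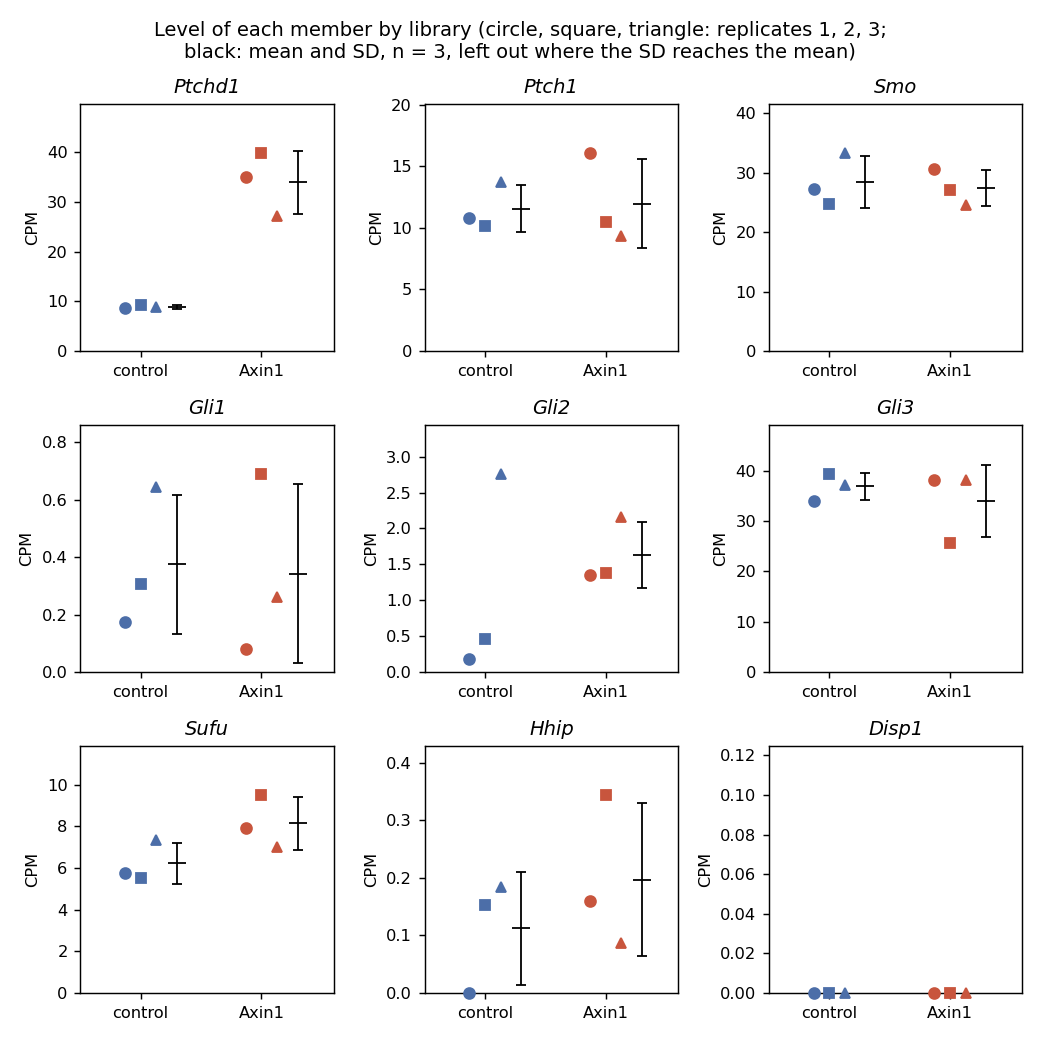
Level of each of the 9 members in CPM (vertical axis, one scale per panel) in the 3 control and 3 Axin1 libraries, with circles, squares and triangles for replicates 1, 2 and 3 and black bars for the mean and SD, left out where the SD reaches the mean. Ptchd1 is at 8.58 to 9.20 CPM in the controls and 27.2 to 39.8 CPM in the Axin1 libraries, while the groups overlap in the panels of the other members that had reads.

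The hedgehog receptor and its transducer were at similar levels in both groups. Ptch1 (NM_008957), which binds the ligands and is also a transcriptional target of the pathway, was at 10.8, 10.1 and 13.7 CPM in the control libraries and 16.1, 10.5 and 9.34 CPM in the Axin1 libraries. Both the highest and the lowest of these 6 values were in Axin1 libraries, and the groups overlapped. The means were 11.53 ± 1.91 and 11.95 ± 3.60 CPM (SD, n = 3 each), with a log2 fold change of 0.05 (SE 0.26, 95% interval −0.54 to 0.65; adjusted p from edgeR 0.946). Smo (NM_176996), the seven-pass membrane protein that Ptch1 restrains, was at 27.2, 24.7 and 33.3 CPM in the controls and 30.6, 27.0 and 24.6 CPM with Axin1. The groups overlapped almost completely. Smo had a log2 fold change of −0.05 (SE 0.17, 95% interval −0.44 to 0.34; adjusted p from edgeR 0.919). The signs of these small differences changed when single libraries were left out. Hhip, a membrane protein that binds the ligands and limits their action, had 4 reads in all in the control libraries and 8 in the Axin1 libraries, or 0.113 CPM (95% exact Poisson interval 0.0308 to 0.290) and 0.207 CPM (0.0895 to 0.408). The intervals, which cover counting error only, overlapped, and Hhip was too low to be tested.

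Of the GLI factors, Gli3 was the abundant one. Gli3, which in the absence of ligand is processed to a repressor, was at 34.0, 39.3 and 37.2 CPM in the controls and 38.1, 25.7 and 38.2 CPM with Axin1. Only Axin1 replicate 2 stood below the rest, and the groups overlapped. The log2 fold change of Gli3 was −0.12 (SE 0.18, 95% interval −0.53 to 0.30; adjusted p from edgeR 0.789), and it was 0.05 without Axin1 replicate 2. Gli2, the main activator of the family, was low at 0.175, 0.460 and 2.76 CPM in the controls and 1.36, 1.38 and 2.16 CPM with Axin1. Control replicate 3 held the highest level of all 6 libraries and the other 2 controls the lowest. The log2 fold change of Gli2 was 0.54 with a wide interval of −1.41 to 2.49 (SE 0.85) and an edgeR adjusted p of 0.797. Without control replicate 3 it was 2.29 with an adjusted p of 0.129. The same control library had the highest summed level of 15 neural progenitor and neuron markers (484 CPM, against 292 to 377 CPM in the others). Nes and Stmn2 held the larger part of that sum. Tubb3 was at 106 CPM in this library, against 14.4 to 55.0 CPM in the others, and Stmn2 at 84.7 against 75.3 to 124 CPM. The part of neural cells in the Gli2 value was not tested. Gli1, the family member whose transcription most directly follows pathway activity, had 2, 4 and 7 reads in the controls and 1, 10 and 3 reads with Axin1. The sums of 13 and 14 reads gave 0.368 CPM (95% exact Poisson interval 0.196 to 0.629) and 0.363 CPM (0.198 to 0.608), so that a difference in Gli1 was not detectable at this depth.

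Sufu, the cytoplasmic protein that holds GLI factors back, was at 5.78, 5.52 and 7.35 CPM in the controls and 7.91, 9.5 and 7.0 CPM with Axin1. Its groups overlapped only through control replicate 3 and Axin1 replicate 3. Means were 6.22 ± 0.993 and 8.14 ± 1.27 CPM (SD, n = 3 each), and the log2 fold change of 0.39 (SE 0.25, 95% interval −0.19 to 0.97) had an edgeR adjusted p of 0.479. Disp1, which releases lipid-modified ligand from the cells that make it, had 0 reads in all 6 libraries, which allows up to 0.0406 CPM over the libraries together and 0.207 to 0.276 CPM in a single library. How reads with several matches were counted is not stated, and the globin entry Hba-a1 was also at 0 in every library, so a 0 may not be a level.

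Of the 8 members other than Ptchd1, 5 had enough reads to be tested, and Gli1, Hhip and Disp1 did not. None of the 5 passed the adjusted threshold, 0 had an unadjusted p under 0.05 with edgeR, and 0 passed with DESeq2, which gave no adjusted p for Gli2. Their median log2 fold change was 0.05, beside 0.02 over all genes tested, and their median absolute log2 fold change was 0.12, beside 0.24. Differences were positive for 3 and negative for 2, and in 0 of the 5 were the groups apart. Over all genes tested 0.845% passed and the groups did not overlap for 23.8%, so counts of 0 among 5 genes say little. The 95% intervals of Ptch1, Smo, Gli3 and Sufu all ended below a log2 fold change of 1. The interval of Gli2 did not.

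Between genes, levels were compared per length, as the authors' RPKM values. In the control libraries the order was Smo at 8.35 RPKM, Gli3 at 4.31, Ptch1 at 2.63, Sufu at 2.59, Ptchd1 at 1.35, Gli2 at 0.168, Gli1 at 0.103, Hhip at 0.0123 and Disp1 at 0. The ranges over libraries overlapped only for the neighbours Ptch1 and Sufu, Gli2 and Gli1, and Hhip and Disp1. In the Axin1 libraries Ptchd1, at 5.22 ± 1.03 RPKM (SD, n = 3), stood second after Smo at 8.14 RPKM. Its range overlapped that of Gli3 at 4.01 RPKM, and Gli3, Sufu at 3.43 and Ptch1 at 2.75 RPKM overlapped in turn. Of the entries with reads, 39.9% had a mean RPKM below that of Ptchd1 in the controls and 55.2% in the Axin1 libraries, so that it moved from the lower part of the range to near its middle.

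Ratios of RPKM within a library do not depend on how its depth was scaled. The ratio of Ptchd1 to Ptch1 in RPKM was 0.531, 0.603 and 0.429 in the control libraries and 1.45, 2.53 and 1.94 in the Axin1 libraries. Every control library thus held less Ptchd1 than Ptch1 per length, and every Axin1 library more. The ratio of Ptchd1 to Smo was 0.163, 0.193 and 0.137 in the controls and 0.590, 0.762 and 0.571 with Axin1. Because Ptchd1 was selected on this contrast and Ptch1 and Smo differed little, both ratios restate the selection and add no support. The ratio of Ptch1 to Smo, which does not involve the selected gene, was 0.307, 0.319 and 0.32 in the controls and 0.408, 0.301 and 0.294 with Axin1. It overlapped between the groups, with Axin1 replicate 1 the highest library.

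**Figure D2:**
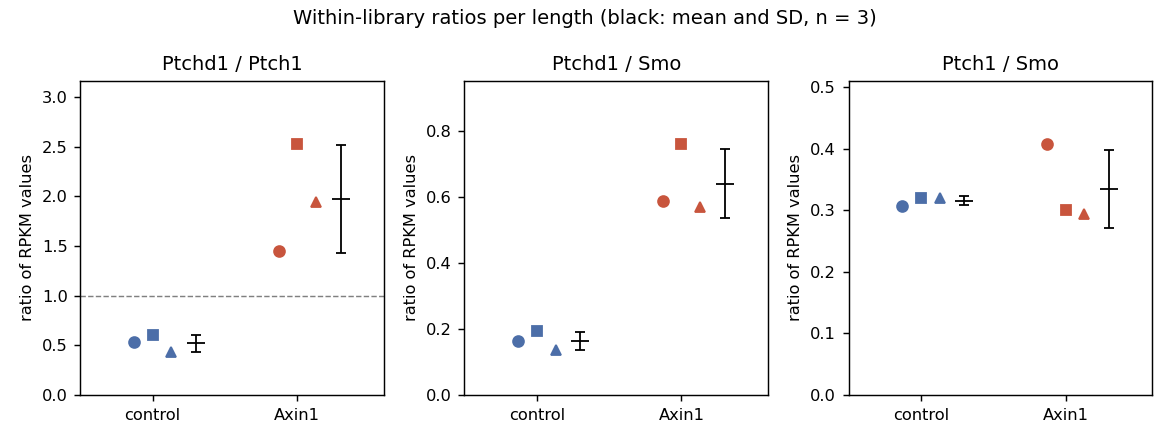
Ratio of RPKM values within each library (vertical axes, linear from 0) for Ptchd1 over Ptch1, Ptchd1 over Smo and Ptch1 over Smo, with circles, squares and triangles for replicates 1, 2 and 3, black bars for the mean and SD, and a dashed line where the values are equal. The ratios with Ptchd1, which restate its selection on this contrast, lie apart between the groups, from 0.429 to 0.603 against 1.45 to 2.53 over Ptch1. The ratio of Ptch1 to Smo overlaps.

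The wider pathway was read from 5 lists by role, which held 83 genes without repeats. Of these, 81 had an entry, 3 had no read in any library and 62 were tested. One gene passed the threshold, the target gene Foxf2, which was lower, and 0 were higher. With DESeq2, 3 passed. At an unadjusted p under 0.05 with edgeR there were 6 genes, 4 of them higher, beside 2177 of the 12661 genes tested, 1147 of them higher. The groups did not overlap for 11 of the 62. The median log2 fold change of the 62 was 0.11. Beside the 0.845% of all genes that passed and the 23.8% whose groups did not overlap, these counts, and those of the single lists below, are no result about the pathway. Leaving out a library gave 4 genes without control replicate 3 and 0 without any of the other 5 libraries.

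Of the ligands, Shh and Ihh were near or below the limit of detection and Dhh was low. Shh had 1 read in the control libraries together and 1 in the Axin1 libraries, and Ihh had 1 and 4. Dhh, the ligand known from peripheral nerve sheaths, endothelium and gonads, was at 0.875, 1.53 and 1.38 CPM in the controls and 1.12, 0.895 and 1.47 CPM with Axin1. The groups overlapped, with an edgeR adjusted p of 0.929 for a log2 fold change of −0.13. Of the 10 genes for ligands and their release 5 were tested and 0 passed. Those with the smallest p were Disp2, a relative of Disp1 (3.17 ± 0.389 and 2.14 ± 0.541 CPM, SD, n = 3 each), Gpc3, a cell-surface proteoglycan that competes for ligand, and Hhat, the enzyme that attaches palmitate to the ligands. Their edgeR adjusted p-values were 0.497, 0.679 and 0.758. Reads of Dhh cannot be told apart from those of its neighbour Rhebl1 where the annotated exons overlap.

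Of the 7 receptors and coreceptors, 5 were tested and 0 passed. The coreceptor Boc was at 3.35 ± 2.12 and 4.73 ± 1.22 CPM (SD, n = 3 each), with a log2 fold change of 0.50 and an edgeR adjusted p of 0.634. For Cdon, another coreceptor, the adjusted p was 0.931.

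Among 23 tested genes of Smo and its ciliary regulators 0 passed, with a median log2 fold change of 0.00. Evc, a protein of the ciliary base that acts with Smo, was at 3.24, 2.99 and 3.13 CPM in the controls and 6.23, 4.96 and 6.05 CPM with Axin1. Its groups did not overlap, and its log2 fold change of 0.88 (SE 0.29, 95% interval 0.23 to 1.53) had an edgeR adjusted p of 0.175. Dync2h1, the motor of retrograde transport in cilia, and Arl13b, a ciliary GTPase, had adjusted p-values of 0.329 and 0.380. Their log2 fold changes were 0.41 and 0.39.

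Among 18 tested GLI factors and regulators 0 passed as well, with a median log2 fold change of 0.24, and in 6 the groups did not overlap. Over all genes tested 0.845% passed, the median was 0.02 and the groups did not overlap for 23.8%, so these counts are no result about the list. Zic2, a zinc-finger protein related to the GLI factors, came closest to the threshold, at 16.5, 26.8 and 13.7 CPM in the controls and 1.92, 6.06 and 4.06 CPM with Axin1. All 3 Axin1 libraries lay below all controls, and the log2 fold change was −2.24 (SE 0.44, 95% interval −3.25 to −1.22; adjusted p from edgeR 0.0639). It passed with DESeq2, without a low-count filter (adjusted p 0.0474) and without control replicate 3 (0.0299), and with any of the other 5 libraries left out the adjusted p was 0.079 to 0.227. Prkar1a, a regulatory subunit of the kinase that primes GLI factors for processing, was at 383, 351 and 784 CPM in the controls and at 975 ± 36.9 CPM (SD, n = 3) with Axin1. Control replicate 3 stood apart from the other 2, and the edgeR adjusted p of 0.203 became 0.000677 without it. For Gsk3b, a kinase shared by the hedgehog and Wnt pathways, the means were 312 ± 53.3 and 426 ± 13.4 CPM (SD, n = 3 each), with an edgeR adjusted p of 0.152.

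Target genes of the pathway were read from a list of which 13 were tested. Foxf2, a forkhead factor, was at 20.0, 24.1 and 18.1 CPM in the controls and 4.55, 6.61 and 7.87 CPM with Axin1. Every Axin1 library lay below every control library. Foxf2 fell by 1.71 on the log2 scale (SE 0.25, 95% interval −2.28 to −1.14; adjusted p from edgeR 0.0347). It did not pass without control replicate 1 (adjusted p 0.118), control replicate 2 (0.198), or Axin1 replicate 1, 2 or 3 (0.0564, 0.146 and 0.0632), while the log2 fold change stayed between −1.89 and −1.52 in these fits. The summed level of 18 pericyte and mesenchyme markers was 90.0, 137 and 205 CPM in the controls and 156, 235 and 195 CPM with Axin1, and these sums overlapped between the groups. Of the 15 markers tested, 12 had a positive log2 fold change, with a median of 0.44 over the 15. The part of such cells in the Foxf2 value was not tested. The other 12 targets included Snai1, a zinc-finger repressor, at 5.49 ± 4.40 and 13.3 ± 5.83 CPM (SD, n = 3 each, edgeR adjusted p 0.329), and Ccnd1, a cyclin of the G1 phase, at 356 ± 72.7 and 443 ± 57.8 CPM (adjusted p 0.361). Snai1 passed without control replicate 3, with an adjusted p of 0.0269. Foxa2 and Nkx2-2, floor plate and ventral neural targets of Shh, had no read.

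**Figure D3:**
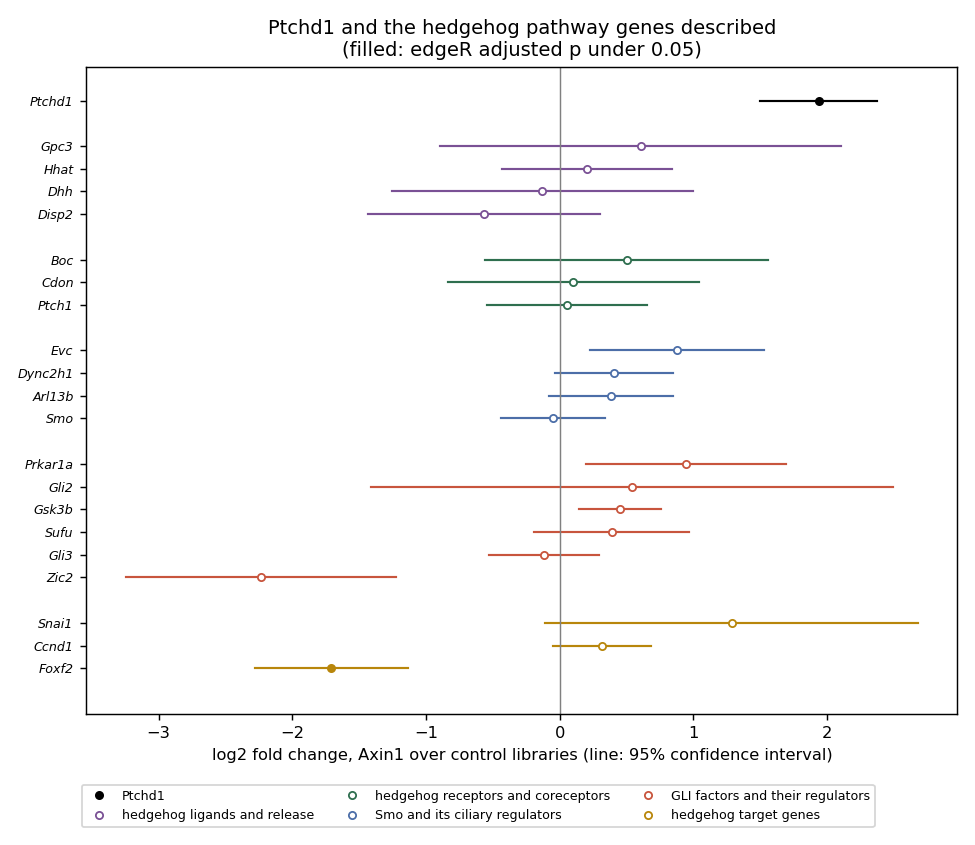
Log2 fold change of the Axin1 over the control libraries (horizontal axis) with its 95% interval for Ptchd1 and the pathway genes with values in the text (the tested members, Dhh and the genes with the smallest p of each list), one gene per line and coloured by role, filled where the edgeR adjusted p was under 0.05. Ptchd1, selected on this contrast, is at 1.94, Foxf2 at −1.71 is the only filled pathway gene, and the intervals of Ptch1, Smo, Gli2, Gli3 and Sufu cross 0.

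Of 11 entries of the family that holds a patched or sterol-sensing domain, 7 were tested, and the only one past the threshold was Ptchd1, which was selected on this contrast, so the count says nothing about the family. Scap, the sterol sensor that escorts SREBP factors, was at 11.9 ± 5.35 and 9.49 ± 2.77 CPM (SD, n = 3 each), with an edgeR adjusted p of 0.695. The cholesterol transporter Npc1 was at 27.3 ± 0.431 and 28.9 ± 4.96 CPM (SD, n = 3 each), with an edgeR adjusted p of 0.854. Ptchd2 stayed at or under 0.951 CPM and was not tested, and Ptchd3 had no read.

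The genes nearest to Ptchd1 on the X chromosome are given beside it. In the order of the annotation, Sat1, Acot9 and Prdx4 precede Ptchd1 and Phex, Gm52451 and Sms follow it. Acot9 and Prdx4, the closest expressed genes on one side, were at 116 ± 12.3 and 206 ± 24.3 CPM in the controls and 115 ± 6.77 and 195 ± 9.90 CPM with Axin1 (SD, n = 3 each). Their log2 fold changes were −0.01 and −0.08, with edgeR adjusted p-values of 0.971 and 0.778. Sat1, a polyamine acetyltransferase, and Sms, which makes spermine, had log2 fold changes of 0.22 and 0.08 (adjusted p 0.407 and 0.868). Phex was at or under 0.276 CPM in every library, and Gm52451 was not analysed here. Of the 4 tested neighbours 0 passed the threshold, and the groups overlapped in each, beside 0.845% of all genes that passed and 23.8% whose groups did not overlap.

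**Figure D4:**
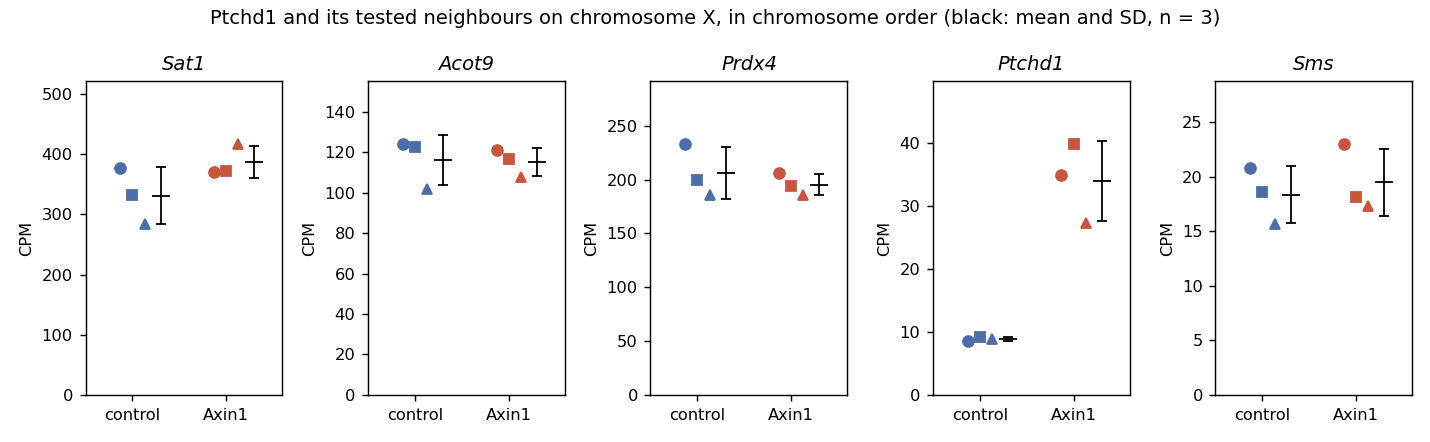
Level in CPM (vertical axes, linear from 0, one scale per panel) of Ptchd1 and its tested X-chromosome neighbours in chromosome order, with circles, squares and triangles for replicates 1, 2 and 3 of each group and black bars for the mean and SD. The points of the 2 groups separate for Ptchd1 and overlap for Sat1, Acot9, Prdx4 and Sms.

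Because Ptchd1 is X-linked, the sex-linked transcripts are given beside it. The X-inactivation transcript Xist was at 90.9, 32.3 and 81.5 CPM in the controls and 122, 61.2 and 43.9 CPM with Axin1. The summed level of 4 Y-linked genes was 0.0875, 208 and 79.9 CPM in the controls and 72.0, 146 and 256 CPM with Axin1. Control replicate 1, with almost no Y-linked reads, had 8.58 CPM of Ptchd1 and the other 2 controls 9.20 and 8.82 CPM. Reads of Xist were present in every library, and in all but control replicate 1 they stood beside Y-linked sums of 72.0 CPM or more. The part of embryo sex in the Ptchd1 difference was not tested.

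Other cell types that the sort could hold were read from marker lists. The macrophage and microglia sum was 1224, 1554 and 1142 CPM in the controls and 507, 2196 and 4025 CPM with Axin1. Pf4, platelet factor 4, alone held 617, 576 and 645 CPM of it in the controls and 201, 785 and 934 CPM with Axin1. Whether these Pf4 reads came from macrophages or from platelets was not tested. The megakaryocyte and platelet sum was 1019, 967 and 1016 CPM in the controls and 534, 1177 and 1619 CPM with Axin1. Axin1 replicate 1 had the lowest macrophage sum of all 6 libraries and a Ptchd1 level of 34.9 CPM. Axin1 replicate 3 had the highest sum and 27.2 CPM of Ptchd1. The neural sum was 292, 352 and 484 CPM in the controls and 354, 348 and 377 CPM with Axin1. Control replicate 3, with the highest neural sum, had 8.82 CPM of Ptchd1. Of these lists 0 genes passed the test, beside 0.845% of all genes tested. All 15 of 15 macrophage markers had a positive log2 fold change, with a median of 1.13. Sox2, a marker of neural progenitors, was at 0 in control replicate 1 and at most 4.04 CPM elsewhere. Erythroid markers summed to between 243 and 3033 CPM, and the library with the lowest sum was again Axin1 replicate 1. The part of these other cell types in the Ptchd1 difference was not tested.

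**Figure D5:**
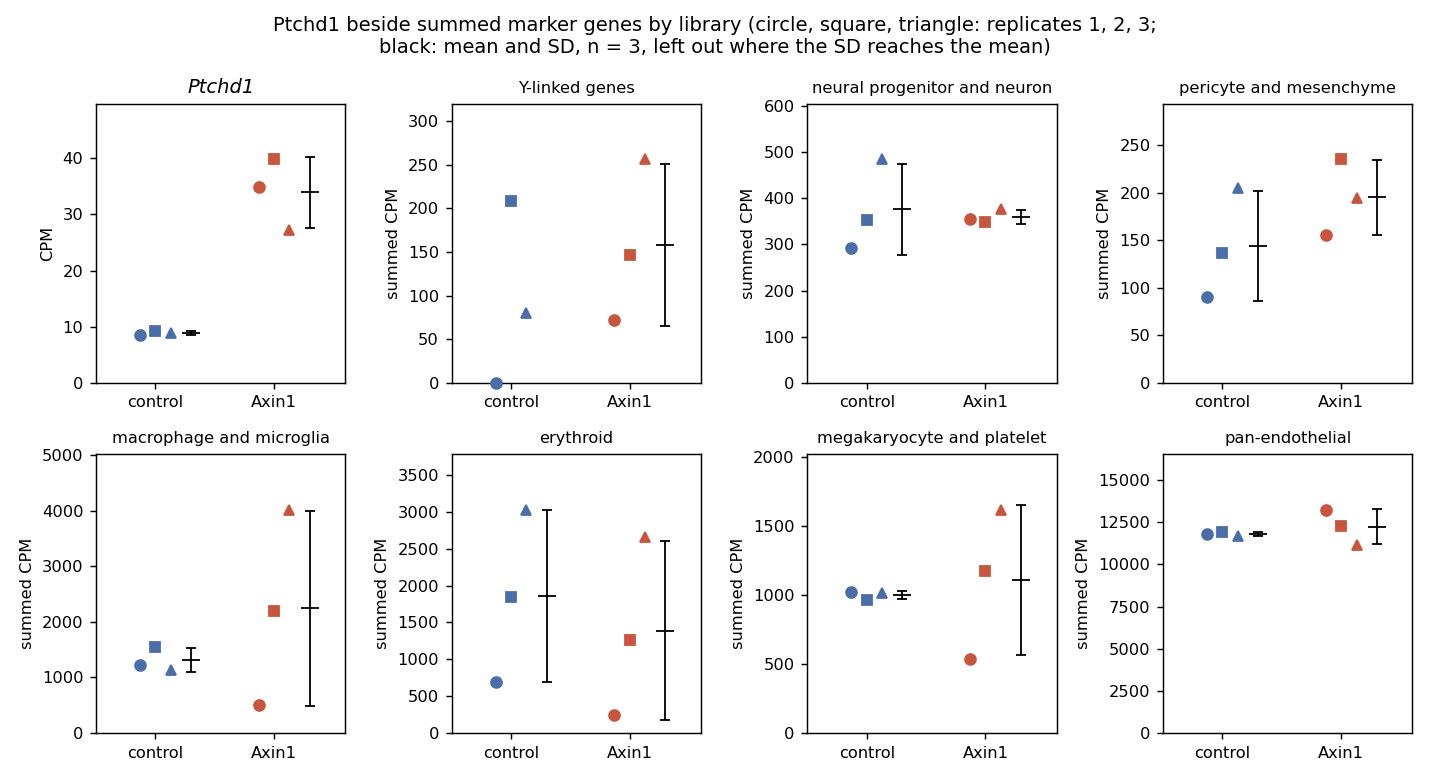
Ptchd1 beside the summed CPM of marker lists and Y-linked genes (vertical axes, one scale per panel) in each library, with circles, squares and triangles for replicates 1, 2 and 3 and black bars for the mean and SD, left out where the SD reaches the mean. The macrophage sum ranges from 507 to 4025 CPM among the Axin1 libraries, and its lowest library has 34.9 CPM of Ptchd1.

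The genes most like Ptchd1 across the 6 libraries, by Pearson's r of log2 CPM among 9483 genes with a mean of at least 5 CPM, were Ttc28 (r = 0.991), Tcfec (0.989), Rapgef1 (0.987), Tm7sf3 (0.986), Cpsf6 (0.985) and Tomm20 (0.984). An r over 0.9 was reached by 232 of the 9483 genes. Of the 6, Tcfec, a transcription factor of the MiT family, differed most in size, from 7.29 CPM in the controls to 16.3 CPM with Axin1. Rapgef1, an exchange factor for Rap GTPases, was at 65.6 and 105 CPM. Among the members, r with Ptchd1 was 0.79 for Sufu, 0.45 for Gli2, 0.09 for Ptch1, −0.10 for Smo and −0.43 for Gli3, all over the same 6 libraries and their shared grouping.

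The annotation places exons of other genes on the opposite strand over exons of Ptchd1 (Gm15156), Gli1 (Arhgap9, Gm47200), Gli3 (Gm6556) and Hhip (Gm27820). The strand setting of the counting is not given in the sources used here, so reads of such pairs may be counted together, and the values of these members carry that uncertainty. The same holds for Foxf2 (Gm27516), Npc1 (Gm15956, Rmc1), Scap, Ccnd1, Rapgef1, Tm7sf3 and Dhh.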

How the data were processed

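Polyadenylated RNA from 6 samples of sorted embryonic brain endothelial cells was made into cDNA with an ultra-low-input kit and sequenced, per the labels' protocols. The authors deposited for each library a read count and an RPKM value per RefSeq gene entry, per the file headers. Bowtie and the mm9 build are named in the submitters' processing notes; neither the counting program nor its strand setting is given there or in the labels. Counts were used as deposited. Genes were kept by edgeR's default expression filter (a count of about 10 in 3 libraries, 15 in total), scaled by TMM and tested with the robust quasi-likelihood method of edgeR 4.0.16 in R 4.3.3, with Benjamini-Hochberg adjustment over all 12661 genes tested and a threshold of 0.05. The SE is the absolute log2 fold change divided by the square root of F. DESeq2 1.42.0, limma 3.58.1 on log2 of RPKM plus 1 or plus 0.1, other scalings and filters, a replicate block and leaving out each library were the alternatives. After the main fit, the same method was also run on counts simulated from the means and spread of these data, with an outcome not reported here. Counts over a total of 10772492 to 14234409 reads per library set the precision, intervals on sums of reads are exact Poisson intervals at 95%, and a count of 0 allows up to 3 counts. Pairs of libraries differed by more than sampling noise, and each was counted as 1 replicate.

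The members and the gene lists were chosen with earlier results of these data known. Named were all members, every gene of a list past the threshold and the 3 with the smallest p in it, the 6 genes most like Ptchd1, the 3 nearest protein-coding genes on each side, and the sex-linked, Axin1 and marker genes. Dhh, Npc1, Ptchd2 and the genes at 0 were named after their values were seen. Promoter sequences and gene order came from RefSeq (GRCm38.p6) and strand overlaps from GENCODE, builds that differ from that of the files, so no coordinates were joined to the counts. A promoter window was matched for 8 of the 9 members by symbol. Some genes of the lists enter the counts but are not reported here by name.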

Additional observations from a re-analysis of the deposited data

How the results depend on the processing

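Ptchd1 kept a positive difference in all 16 alternatives, with log2 fold changes between 1.39 and 2.07. These alternatives reuse the libraries on which Ptchd1 was selected, so its sign restates the selection and adds no support. The number of all genes past the threshold was 107 and became 672 with DESeq2, 197 without a low-count filter, and 0 to 695 when one library was left out. It was 0 with edgeR without control replicate 2 and without Axin1 replicate 2, where 1539 and 1733 genes had an unadjusted p under 0.05. Among the members, 0 to 1 passed with a library left out. Among the wider pathway genes 1 passed, against 3 with DESeq2, 2 without a filter and 0 to 4 with a library left out. The differences of Ptch1 (−0.22 to 0.20), Smo (−0.14 to 0.065) and Gli3 (−0.21 to 0.047) crossed 0 with a library left out. Among these, Ptch1 was at −0.03 without control replicate 2 and −0.22 without Axin1 replicate 1, Smo at 0.065 without control replicate 3 and 0.02 without Axin1 replicate 3, and Gli3 at 0.047 without Axin1 replicate 2. The cause was not tested. No tested member other than Ptchd1 passed in any alternative, the smallest adjusted p being 0.129.

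Control and Axin1 libraries of different numbers in the descriptions had deviations from the group means with r of −0.249 to 0.175. For libraries of the same number r was 0.23, 0.15 and −0.02. The first 2 of these pairs also share a title number, but the labels do not say what the numbers mark, so the libraries were not treated as paired. A replicate block on these numbers gave 105 genes in all and 2 in the wider pathway, where Zic2 passed with an adjusted p of 0.035. A replicate block on the numbers shared by the titles of 4 libraries gave 1500 genes in all, 7 in the wider pathway and 0.14 for Smo, and Zic2 passed at 1.69e-05. The same 4 libraries without a block, an alternative chosen after seeing the data, gave 512, 3 and 0.15, with an adjusted p of 0.111 for Zic2. For Gli1, Hhip and Disp1 the depth limits any statement to differences larger than their counting intervals.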
